A study of Mus musculus with 2 samples.

Results

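The serpin protease inhibitor family was described in mouse fetal liver from the 61 protein-coding genes whose symbol starts with Serpin and a clade letter from a to i, out of 21474 protein-coding genes in the deposited tables. The rule for members used the symbol alone and no measured value, although it was set with earlier results of these data known. The samples were 2 total RNA libraries of healthy B6NCrl embryos at embryonic day 16.5, biological replicates 1 and 2 of a single group, untreated and with no second condition. Each came from a pool of male and female livers that carried the same donor identifier, with 41 embryos stated for replicate 2 and no number for replicate 1. RNA over 200 nt was kept, 10 ng entered each library, and the pools limit both libraries to an average over embryos and over all cells of the organ. With 2 libraries of 1 group no test between conditions exists, so levels are given as both values and as mean ± SD (n = 2), and nothing says how far that SD is technical.

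A serpin carries an exposed loop that a target protease cleaves, after which the inhibitor changes shape and holds the protease in a dead complex. The liver secretes most serpins of the blood, among them inhibitors of elastase, thrombin, plasmin and the first complement component. Some members inhibit nothing and instead carry hormones or help collagen to fold. Clade letters follow sequence kinship: clade A holds the antitrypsins and hormone carriers, clade B serpins stay inside cells, and clades C to I are small groups with a named member each. Rodents hold many tandem copies of single human genes in clades A and B, and those copies differ most in the loop that meets the protease.

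The loops of the 5 abundant Serpina1 copies are shown because the loop meets the protease and is less alike between these near-identical genes than the rest of their coding sequence. They were read from GENCODE M21 coding sequence on GRCm38, from the hinge glutamate codon to the conserved phenylalanine codon beyond the cleavage site, all from the minus strand of chromosome 12. Capitals mark each position that is not the same in all 5 copies, 18 of 87.
Serpina1a: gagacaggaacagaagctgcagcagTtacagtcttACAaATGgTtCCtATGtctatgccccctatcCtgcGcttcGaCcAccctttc
Serpina1b: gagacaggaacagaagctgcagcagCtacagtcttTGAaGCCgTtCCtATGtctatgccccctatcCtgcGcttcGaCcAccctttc
Serpina1c: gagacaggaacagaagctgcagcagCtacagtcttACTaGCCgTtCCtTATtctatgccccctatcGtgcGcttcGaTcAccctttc
Serpina1d: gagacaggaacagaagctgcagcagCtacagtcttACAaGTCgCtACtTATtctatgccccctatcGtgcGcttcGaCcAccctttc
Serpina1e: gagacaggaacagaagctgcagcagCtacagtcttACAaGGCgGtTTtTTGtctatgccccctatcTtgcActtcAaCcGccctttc
They lie at chr12:103853750-103853836, chr12:103728317-103728403, chr12:103895087-103895173, chr12:103763755-103763841 and chr12:103947093-103947179, in the order listed. The differing positions lie mostly in the middle of the loop, where the protease cuts, with a few near its end, and the hinge codons at its start are the same in all copies.

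The same stretch is shown for 4 copies of Serpina3, the largest tandem set, of which Serpina3g and Serpina3n were expressed and Serpina3i and Serpina3m were not. These are on the plus strand of chromosome 12, and capitals again mark positions that are not the same in all 4 copies, 45 of 96.
Serpina3g: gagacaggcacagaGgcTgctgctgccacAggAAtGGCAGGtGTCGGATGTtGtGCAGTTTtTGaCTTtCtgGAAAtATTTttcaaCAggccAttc
Serpina3i: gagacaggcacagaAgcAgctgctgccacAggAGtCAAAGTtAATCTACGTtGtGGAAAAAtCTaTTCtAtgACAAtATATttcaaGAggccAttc
Serpina3m: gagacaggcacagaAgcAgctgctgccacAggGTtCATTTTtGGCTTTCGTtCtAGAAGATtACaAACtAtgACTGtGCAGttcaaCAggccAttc
Serpina3n: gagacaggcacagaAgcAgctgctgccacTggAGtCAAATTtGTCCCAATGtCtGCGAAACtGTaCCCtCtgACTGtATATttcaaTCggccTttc
They lie at chr12:104241066-104241161, chr12:104268474-104268569, chr12:104393763-104393858 and chr12:104413442-104413537. Here too the hinge is nearly constant and most codons of the rest of the loop differ.

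Levels are in TPM, the deposited abundance of transcripts corrected for their length and for library size. Expression meant 1 TPM or more in both libraries, and 23 of the 61 serpins (37.7%) passed, against 52.2% of all protein-coding genes. At 10 TPM the 16 serpins that passed were 26.2% of members, against 26.4% of all protein-coding genes. At 100 TPM the order turned: 11 serpins (18.03%) passed, against 3.98%. At 1000 TPM 3 serpins passed, 4.92% of members against 0.228%. At the other end 17 serpins (27.9%) held no count in either library, against 20.7% of protein-coding genes, and 21 more had counts but stayed under 1 TPM in both. The shares of members at 100 TPM or more and at no count were thus both above the background, with a median member at 0.10 TPM against 1.49 TPM for protein-coding genes. A count of 0 allowed up to 3 counts, which for those 17 genes corresponds to 0.0347 to 0.0850 TPM in replicate 1 and 0.0321 to 0.0787 TPM in replicate 2. In a whole organ, fewer cells of a type and less RNA per cell cannot be told apart.

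All serpins together summed to 7433 TPM in replicate 1 and 7993 TPM in replicate 2, or 0.771% ± 0.040 of all TPM (SD, n = 2). The 5 most abundant members held 68.1% ± 0.55 of that sum and the 10 most abundant 96.0% ± 0.10. Clade A took 66.0% ± 0.19, clade C 15.1% ± 0.26 and clade F 13.2% ± 0.05. The order of clades C and F turned by expected counts, at 9.63% and 16.9%, and with Serpinc1 at its coding length, at 10.6% and 13.9%. Clade D took 2.80% ± 0.09, clade G 1.43% ± 0.03 and clade H 0.745% ± 0.015. The 26 clade B genes together took 0.706% ± 0.034, although they were more numerous than the 24 of clade A. Clade E took 0.0786% ± 0.0020 and clade I 0.0105% ± 0.0007. Expressed members numbered 11 of 24 in clade A and 5 of 26 in clade B, and 16 of the 17 genes without counts were of clade B.

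**Figure D1:**
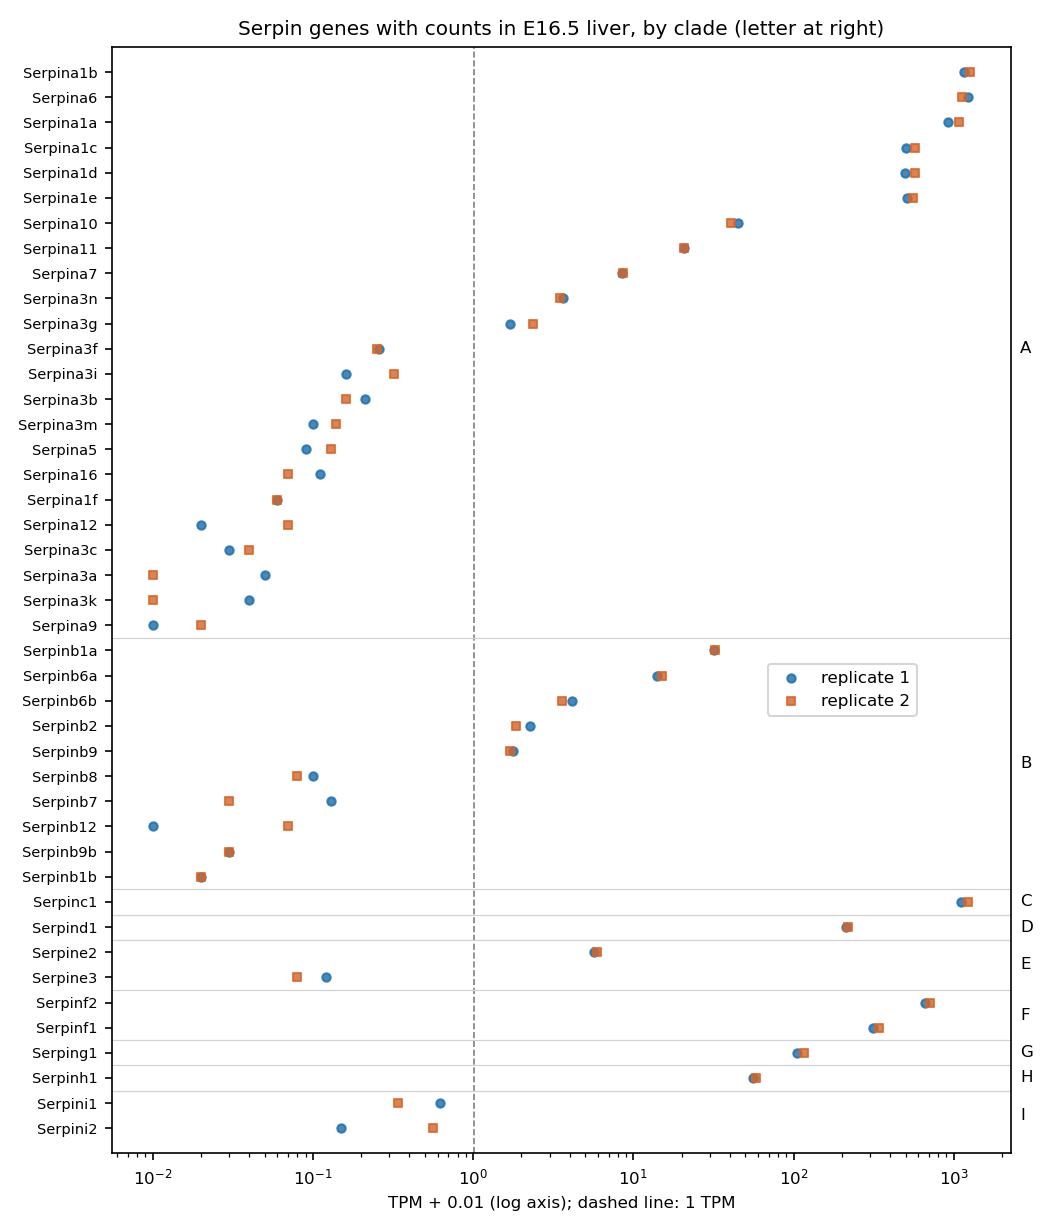
Level of the serpins with counts that are reported here, 1 row per gene grouped by clade, as TPM + 0.01 on a log axis with a circle for replicate 1 and a square for replicate 2. The highest genes of clades A, C and F lie near 1000 TPM, and the 2 symbols of nearly every gene above the 1 TPM line lie side by side.

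Both libraries carried the defining markers of a fetal liver that also makes blood. All 6 hepatocyte markers, led by Trf at 16577 and 19839 TPM, and all 5 erythroid markers, led by Hbb-bs at 75217 and 72809 TPM, passed 100 TPM in replicates 1 and 2. All 5 neutrophil markers passed 100 TPM and all 5 macrophage markers passed 10 TPM. The 3 placenta markers, Prl3d1, Tpbpa and Psg17, were all at 0, and no marker of yolk sac alone was listed. Markers of pancreas, bile duct and intestine differed between libraries. The 4 pancreas markers summed to 14.0 TPM in replicate 1 and 45.3 TPM in replicate 2. The 3 bile duct markers summed to 4.23 and 15.2 TPM, and the 3 intestine markers to 7.87 and 15.9 TPM. All 4 megakaryocyte, 4 mesenchymal and 4 endothelial markers passed 1 TPM. So did 3 of 4 mast cell, 2 of 3 mesothelial, 1 of 4 T and NK cell and 1 of 3 brain markers. That brain marker was Gfap at 6.47 and 7.23 TPM in replicates 1 and 2, while Snap25 and Tubb3 stayed under 1 TPM. Total expected counts were 44477766 in replicate 1 and 48820712 in replicate 2.

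The alpha-1-antitrypsin genes, Serpina1, whose human product guards the lung against neutrophil elastase, were the largest single block. Serpina1a to Serpina1e summed to 3603 TPM in replicate 1 and 4052 TPM in replicate 2, a mean of 3828 ± 318 TPM (SD, n = 2), and made up 49.6% ± 1.6 of all serpin TPM. Serpina1b (ENSMUSG00000071178.7) had 1159.9 and 1263.8 TPM in replicates 1 and 2. Serpina1a (ENSMUSG00000066366.10) had 926 and 1079 TPM. These 2 copies stood apart from the other 3, which could not be ordered. Serpina1c had 505 and 575.5 TPM, Serpina1d 498 and 576 TPM, and Serpina1e 513 and 558 TPM. Their ranges overlap one another. Serpina1f, the sixth copy, had 0.05 TPM in both libraries, from 6 counts in each. It is not near-identical to the others. Outside the loop its coding bases had a median identity of 52.7% to those of Serpina1a to Serpina1e, against 97.1% among these copies.

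As shares of the summed Serpina1 TPM, Serpina1b held 31.7% ± 0.71, Serpina1a 26.2% ± 0.65, Serpina1c 14.1% ± 0.13, Serpina1d 14.0% ± 0.27 and Serpina1e 14.0% ± 0.33 (SD, n = 2). The SD covers the libraries alone and not the division of shared reads. Of the 100-base windows in GENCODE M21 transcripts, 85.6% of those of Serpina1e and 85.2% of those of Serpina1b occur in no other gene. The share was 70.7% for Serpina1d, 57.2% for Serpina1a and 30.7% for Serpina1c, and Serpina1c shared 58.0% of its windows with Serpina1a. Windows were pooled over all annotated transcripts of a gene, also those with little TPM, so the copies were not compared on like bases. Serpina1b had 2306 windows, although its transcript of 1394 nt held 99.9% of its TPM, while Serpina1c had 1262 windows from a transcript of 1361 nt. All of the 5 had expected counts that were not whole, the mark of reads divided among genes. By these pooled windows the levels of Serpina1a and Serpina1c are the least certain, but the widths of deposited intervals single out Serpina1c alone. In replicate 1 the width was 3.30% of TPM for Serpina1c, 2.66% for Serpina1d and 2.61% for Serpina1e. It was 2.24% for Serpina1a and 1.69% for Serpina1b. All windows of Serpina1f were its own, so its low level does not rest on such a division. The annotated bounds of Serpina1b, from 103728156 to 103830373 on chromosome 12, span all of Serpina1d on the same strand.

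**Figure D2:**
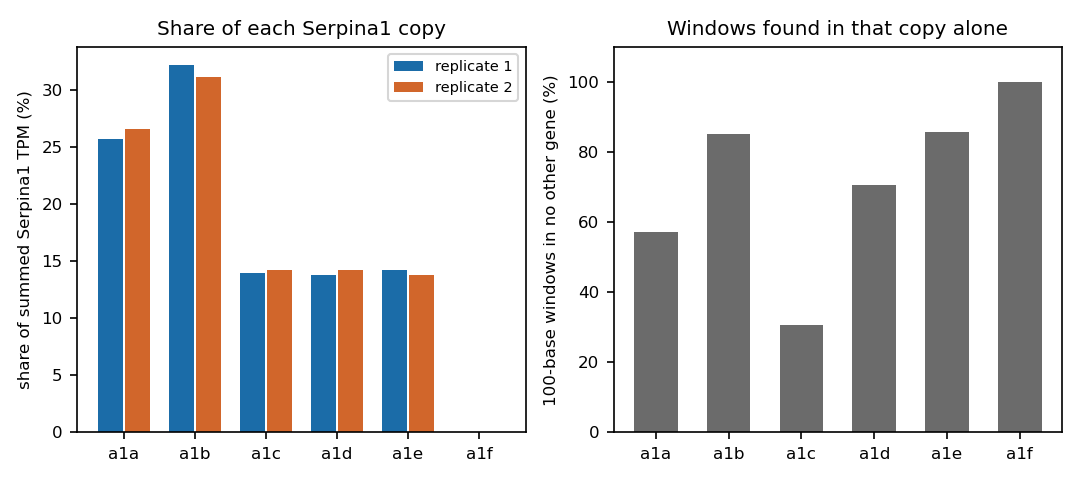
Left, share of the summed Serpina1 TPM held by each copy in percent, with 1 bar per replicate. Right, percent of each copy's 100-base windows, pooled over its annotated transcripts, that occur in no other gene. Serpina1b and Serpina1a hold the highest shares, the next 3 copies lie near 14% each, and Serpina1c has the fewest windows of its own.

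The hormone carriers of clade A lay at opposite levels. Serpina6 (ENSMUSG00000060807.7, chr12:103646630-103657212, minus strand), corticosteroid-binding globulin, had 1231 and 1133 TPM in replicates 1 and 2, all from whole counts. It was the only member of the 5 most abundant that was lower in replicate 2. Serpina7 (ENSMUSG00000031271.10, chrX:139079257-139085236, minus strand), thyroxine-binding globulin on chromosome X, had 8.54 and 8.63 TPM. Ttr, another thyroxine carrier of plasma, had 1418 and 1579 TPM. Nr3c1, the receptor for the steroids that Serpina6 carries, had 21.7 and 21.9 TPM, while Cyp11b1, an adrenal enzyme that makes them, had 0.50 and 2.95 TPM. Agt, angiotensinogen, is a serpin by fold whose symbol lies outside the rule, and it had 227 and 253 TPM. Ren1, the renin that cleaves it, had 0.49 and 0.63 TPM, and Ace, which acts after renin, 0.05 and 0.21 TPM. Of the 6 listed partners of carrier serpins and hormone precursors, 3 passed 1 TPM.

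The inhibitors of blood clotting spanned a wide range of levels. Serpinc1 (ENSMUSG00000026715.8, chr1:160978585-161005863, plus strand), antithrombin, which blocks thrombin and factor Xa, had 1109 and 1221 TPM in replicates 1 and 2. Serpind1 (ENSMUSG00000022766.8, chr16:17331371-17343575, plus strand), heparin cofactor II, a thrombin inhibitor that acts with glycosaminoglycans, had 213 and 219 TPM, and it overlaps Pi4ka on the other strand, at 11.96 and 13.3 TPM. F2, the thrombin precursor, had 477 and 557 TPM. At the deposited gene lengths Serpinc1 was 2.26 ± 0.09 times F2 and Serpind1 was 0.420 ± 0.038 times F2 (SD, n = 2). With Serpinc1 counts divided by the length of its complete transcript, an alternative chosen after seeing the data, the ratio turned to 0.400 ± 0.017, and by coding length it was 1.503 ± 0.066. Serpina10 (ENSMUSG00000061947.6, chr12:103614786-103631444, minus strand), which blocks factor Xa together with protein Z, had 44.8 and 40.9 TPM. Proz, protein Z itself, had 45.7 and 51.4 TPM, and F10 had 157 and 169 TPM. Serpina10 was 0.888 ± 0.130 times Proz and 0.264 ± 0.031 times F10. By the length of its coding transcript the ratio to Proz was 1.19 ± 0.17, so those levels could not be ordered. Serpina5, the protein C inhibitor, had 0.08 and 0.12 TPM, while Proc, protein C, had 189 and 209 TPM.

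The level of Serpinc1 depended on the transcript models behind it. Its complete coding transcript of 4970 nt had 18.7 and 20.0 TPM in replicates 1 and 2, 1.66% ± 0.03 of the gene. A partial model of 1044 nt held 49.1% ± 0.19, and another of 742 nt, annotated as a target of nonsense-mediated decay, 49.0% ± 0.24. The deposited gene length was therefore 962 nt. Counts divided by the length of the coding sequence gave 739 and 811 TPM. The gene, in the third place as deposited, was then in the fourth place if it alone was changed and in the fifth if all members were. Divided by the whole 4970 nt transcript its counts gave 197 and 216 TPM, and it was in the tenth place either way. By coding length 4 other members moved by over 1.5 times, to a mean of 108 TPM for Serpinh1, 56.1 TPM for Serpinb1a, 70.2 TPM for Serpina10 and 327 TPM for Serpind1. That long transcript shares its end with Zbtb37 on the other strand, which has 32.2% of all Serpinc1 windows but was at 1.62 and 1.64 TPM. The labels name no strand-specific step.

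Fibrinolysis was covered on its inhibitory side by Serpinf2. Serpinf2 (ENSMUSG00000038224.8, chr11:75431732-75439591, minus strand), alpha-2-antiplasmin, had 663 and 713 TPM in replicates 1 and 2, against 416 and 482 TPM for Plg, the plasmin precursor, a ratio of 1.54 ± 0.08 (SD, n = 2). Its neighbour Serpinf1 (ENSMUSG00000000753.11, chr11:75409769-75422701, minus strand), pigment epithelium-derived factor, which inhibits no protease, had 312 and 341 TPM. Both lie within 29.8 kb at chr11:75409769-75439591. The level of Serpinf1 also depended on its transcript models, with a deposited gene length of 1231 nt. Its counts divided by its coding transcript of 1832 nt, an alternative chosen after seeing the data, gave 203 and 235 TPM in replicates 1 and 2. The plasminogen activators were low, with Plat at 0.97 and 1.40 TPM and Plau at 0.80 and 1.07 TPM. Serpine2, protease nexin 1, a thrombin and urokinase inhibitor at cell surfaces, had 5.69 and 5.91 TPM, and Serpine3 had 0.11 and 0.07 TPM. Serpini1, neuroserpin, an inhibitor of Plat in brain, had 0.61 and 0.33 TPM.

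Serping1 (ENSMUSG00000023224.8, chr2:84765387-84775444, minus strand), the C1 inhibitor, blocks C1r, C1s and the contact-phase proteases. It had 105.1 and 116 TPM in replicates 1 and 2, against 66.8 and 69.8 TPM for C1s1, a ratio of 1.62 ± 0.07 (SD, n = 2). C1ra had 25.6 and 28.5 TPM, Masp2 52.0 and 57.8 TPM, and F12, a contact-phase target, 130.37 and 160.45 TPM. The second mouse copies of the C1 proteases were near absent: C1rb had no count, and C1s2 had 0.00 and 0.03 TPM. Serpinh1 (ENSMUSG00000070436.7, chr7:99345376-99353239, minus strand), also called HSP47, stays in the endoplasmic reticulum and helps collagens to fold. It had 56.2 and 58.7 TPM, beside Col3a1 at 92.8 and 109 TPM, Col1a1 at 57.2 and 77.7 TPM and Col1a2 at 36.6 and 46.25 TPM. The lowest of the 8 listed collagens, Col5a2, had 5.06 and 6.04 TPM, all 8 passed 1 TPM, and all 8 were higher in replicate 2. That direction was not particular to collagens. It was shared by all 10 proteases of coagulation and fibrinolysis found and by 23 of 28 inhibitors of other families. Of the lysosomal proteases 3 of 7 shared it, and of the neutrophil proteases 0 of 3. Serpina11, whose target is not established, had 20.8 and 20.7 TPM.

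**Figure D3:**
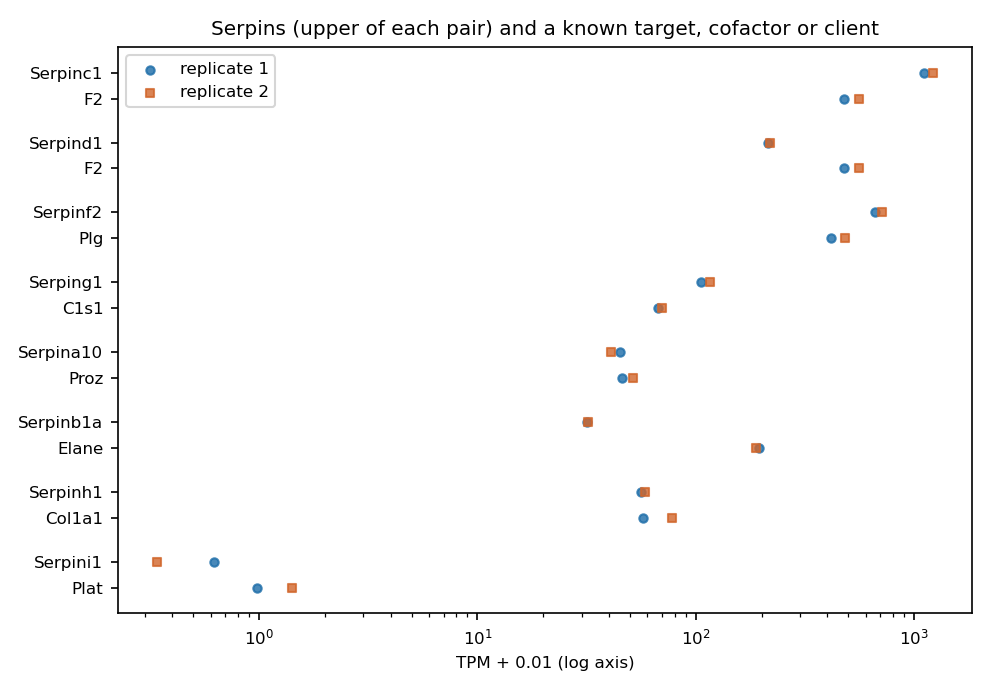
Level of 8 serpins, each above a known target, cofactor or client, as TPM + 0.01 on a log axis with a circle for replicate 1 and a square for replicate 2. At deposited lengths Serpinc1, Serpinf2 and Serping1 lie right of their partner (Serpinc1 would lie left of F2 by its complete transcript), Serpind1, Serpinb1a and Serpini1 left of it, the partner of Serpini1 being Plat, and Serpina10 and Serpinh1 lie close to theirs.

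Clade B, the intracellular serpins, reached 32.0 TPM at most. Serpinb1a (ENSMUSG00000044734.11, chr13:32842092-32851185, minus strand), which blocks the granule proteases of neutrophils, had 31.8 and 32.2 TPM in replicates 1 and 2. Of its targets, Elane, neutrophil elastase, had 195 and 189 TPM and Prtn3 93.4 and 84.6 TPM, both above it. Ctsg, at 35.3 and 29.2 TPM, was above it in replicate 1 and below it in replicate 2. Serpinb1a was 0.167 ± 0.005 times Elane (SD, n = 2). All 3 proteases were lower in replicate 2, and Serpinb1a had almost the same value in both. Of the 5 neutrophil markers, Elane among them, 4 were higher in replicate 2. Serpinb6a, a cytoplasmic inhibitor of cathepsin G and trypsin-like proteases, had 14.0 and 15.0 TPM, and Serpinb6b had 4.14 and 3.55 TPM. Serpinb6a shares 11.03% of its windows with Nqo2 on the other strand, at 11.2 and 11.1 TPM. Serpinb9, which protects cells from granzyme B, had 1.76 and 1.68 TPM, and Gzmb had 0.68 and 0.73 TPM. Serpinb2, plasminogen activator inhibitor 2, had 2.25 and 1.84 TPM and shares 7.52% of its windows with Serpinb10.

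Each clade B set with any expression was led by 1 copy. Serpinb1a held 99.97% of its set of 3, with 0.01 TPM in both libraries for Serpinb1b and no count for Serpinb1c. Serpinb9 held 98.9% ± 0.04 of its set of 7 (SD, n = 2), with 0.02 TPM in both libraries for Serpinb9b and no count for the other 5. Serpinb6a held 79.0% ± 2.6 and Serpinb6b 21% ± 2.6 of their set of 5, and Serpinb6c, Serpinb6d and Serpinb6e had no count. The 4 Serpinb3 copies, known from squamous epithelia, had no count. Serpinb5, maspin of epithelial cells, had none either, and none of the 4 keratinocyte markers passed 1 TPM.

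Among the 10 Serpina3 copies, descended from the gene of human alpha-1-antichymotrypsin, 2 were expressed. Serpina3n, an acute-phase inhibitor, had 3.63 and 3.49 TPM in replicates 1 and 2, 55.8% ± 5.4 of the set (SD, n = 2). Serpina3g, a cytoplasmic inhibitor of lysosomal cathepsins, had 1.68 and 2.37 TPM, 31.4% ± 5.4. By expected counts the mean shares were 63.5% for Serpina3n and 23.9% for Serpina3g. Lysosomal proteases were read as a list of 7, not all of them targets of Serpina3g. Highest were Ctsd at 369 and 359 TPM, Ctsb at 317 and 331 TPM and Ctsl at 195 and 182 TPM. Ctsk was lowest at 1.13 and 0.89 TPM. Of those 7 lysosomal proteases 6 passed 1 TPM in both libraries. Serpina3f had 0.25 and 0.24 TPM, Serpina3i 0.15 and 0.31 TPM and Serpina3b 0.20 and 0.15 TPM. Serpina3m had 0.09 and 0.13 TPM. Serpina3a had 0.04 and 0.00 TPM, Serpina3c 0.02 and 0.03 TPM, and Serpina3k 0.03 and 0.00 TPM. Serpina3j had no count. Serpina3k, a major serpin of adult mouse plasma, held 2.24 counts in replicate 1 and none in replicate 2, and 95.1% of its windows are its own.

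The 61 genes are not spread evenly over the genome. Of clade A, 23 of 24 lie within 800 kb at chr12:103614786-104414329, with Serpina7 on chromosome X the exception. Along that cluster expression fell into blocks. From Serpina10 to Serpina11, 8 of 10 genes passed 1 TPM, Serpina16 and Serpina1f being the exceptions. Of the 13 genes from Serpina9 to Serpina3n, 2 did. Clade B lies in a cluster of 15 genes at chr13:32842092-34002794, of which 4 passed, and a cluster of 11 at chr1:106861173-107610484, of which Serpinb2 alone passed. In the chromosome 13 cluster the expressed genes lie toward both ends, and the 10 between Serpinb9 and Serpinb6a were silent or nearly so. Highest and lowest genes stood side by side: Serpina1f at 0.05 TPM lies next to Serpina1b, which had the highest mean TPM as deposited, although Serpina6 was above it in replicate 1 and by coding length.

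**Figure D4:**
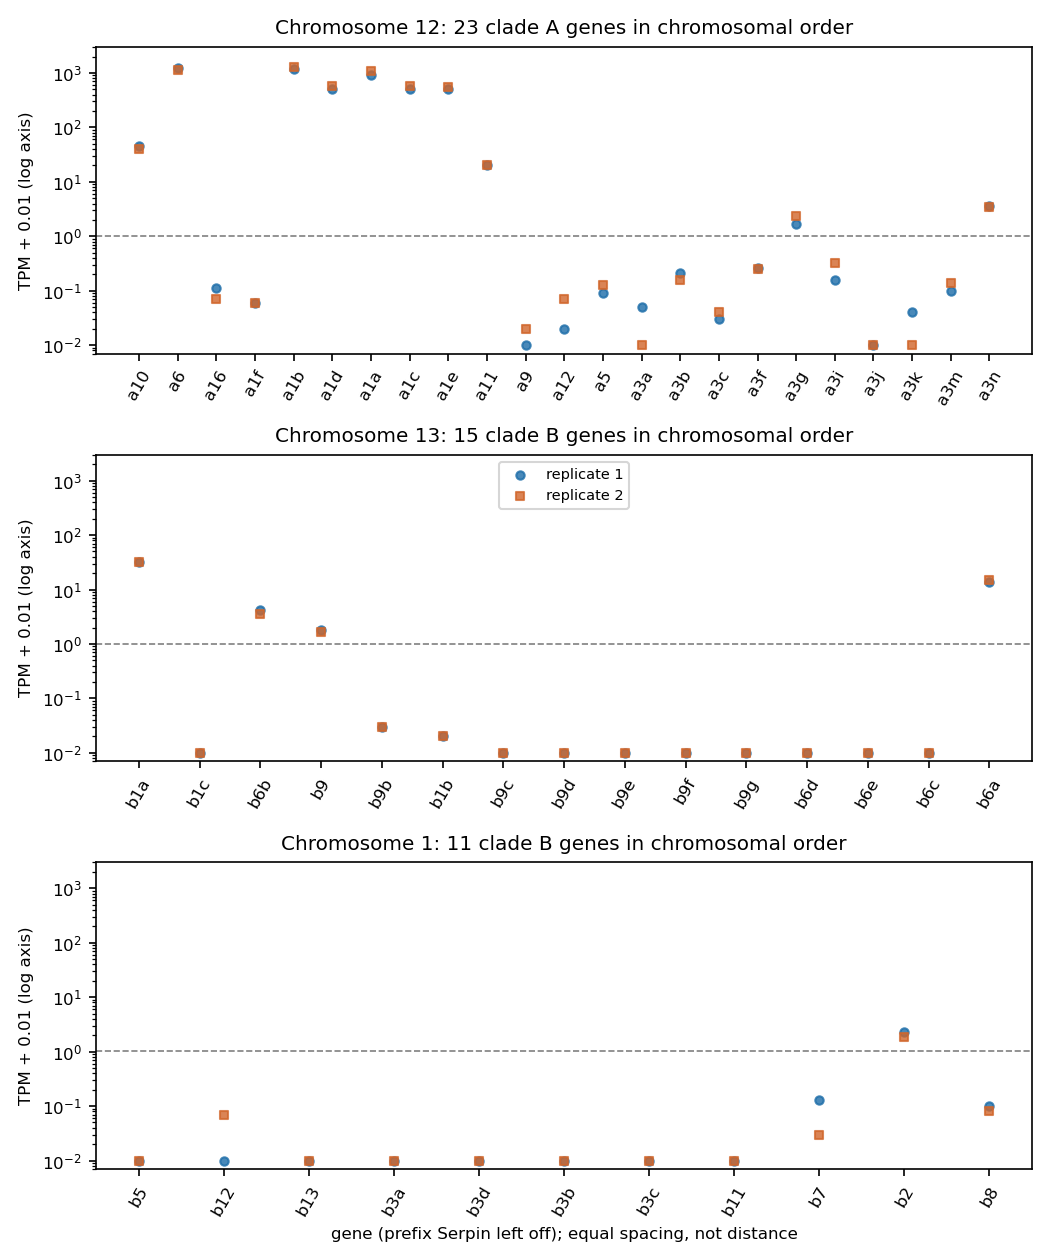
Level of each gene in the 3 large serpin clusters, in chromosomal order with equal spacing, as TPM + 0.01 on a log axis with a circle for replicate 1 and a square for replicate 2. Genes at 0 lie at the bottom. The left part of the chromosome 12 cluster holds the high genes, and most genes of the chromosome 13 and chromosome 1 clusters lie on the floor.

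Loops were compared with the rest of the coding sequence in all 100 pairs of copies that share a number. The loop was located in 52 of 61 members. Between Serpina1a and Serpina1e the median identity of bases was 89.1% in the loop and 97.1% elsewhere over 10 pairs, and the loop was lower in all 10. In Serpinb1 it was 65.6% in the loop and 89.9% elsewhere, in Serpinb3 74.7% and 91.6%, in Serpinb6 63.4% and 79.9%, and in Serpinb9 69.7% and 81.9%. In Serpina3 it was 59.4% and 77.3%. Over the whole 100 pairs the loop was lower in 90. Of the 10 exceptions 9 involved Serpina3g, whose complete coding model has 248 residues, so that missing sequence counts as difference. Leaving it out, a choice made after seeing the data, left 90 of 91 pairs lower, Serpinb3a with Serpinb3b being the exception. In translated residues the loop was lower in 90 of 100 pairs with Serpina3g and 88 of 91 without it. Pairs share members and ancestry, so they are a description and not independent cases. The difference held in sets with an expressed copy and in Serpinb3, whose copies were silent here. Apart from Serpina1, the sets with an expressed copy consisted mostly of copies under 1 TPM, and expressed copies were not compared alone.

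**Figure D5:**
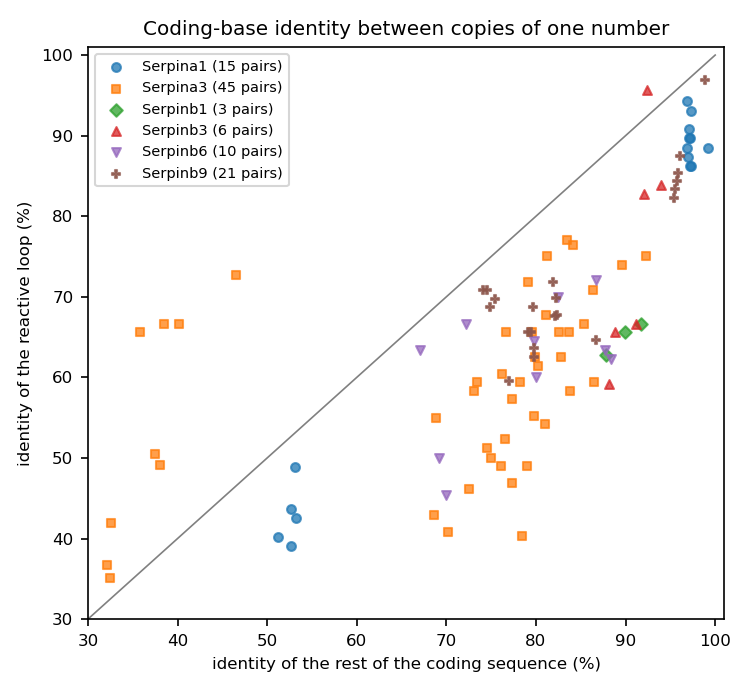
Identity of coding bases in the reactive loop against identity in the rest of the coding sequence, in percent, 1 point per pair of copies, with a marker for each set and a line of equality. Nearly all points lie under the line; the group above it at the left holds the Serpina3g pairs, whose coding model is short.

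Promoters were compared over RefSeq windows on GRCm38.p6, from 250 bases before to 50 bases after each start site, which exist for 52 of the 61 members. The core GTTAAT of the site for HNF1, a liver transcription factor, was searched on both strands. It was present in 5 of 9 members at 100 TPM or more, 1 of 10 from 1 to 100 TPM and 5 of 33 under 1 TPM, and in 8.24% of 27025 genes with a window. The 5 were Serpina1a to Serpina1e, whose windows share the stretch and count as a single ancestral sequence, and the other expressed gene was Serpina7. Serpina1f had none. The windows around it are shown for Serpina1b, Serpina1e and Serpina7, minus strand, with the core in capitals.
Serpina1b: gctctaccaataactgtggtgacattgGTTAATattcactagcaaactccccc
Serpina1e: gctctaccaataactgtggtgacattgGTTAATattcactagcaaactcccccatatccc
Serpina7: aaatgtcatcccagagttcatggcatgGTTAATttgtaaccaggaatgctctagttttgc
They lie at chr12:103738190-103738242, chr12:103956943-103957002 and chrX:139085261-139085320, and the core starts 26, 78 and 57 bases before the annotated start. The same search for the HNF4 site CAAAGTCCA and the FOXA core TGTTTAC matched no serpin window, against 0.555% and 4.05% of genes. The C/EBP site TTGCGCAA matched Serpina5 alone, against 0.207% of genes. The GATA core AGATAA matched 10 of 52 serpins, or 19.2%, against 12.7% of genes. None of the 5 motifs contains another, and a match is letters and not a bound site.

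Targets and partners were read against gene lists that were chosen with earlier results of these data known. Of the 10 proteases of coagulation and fibrinolysis found in the tables, 8 passed 1 TPM, with F2, Plg and Proc highest and Plau lowest. Of 6 complement proteases 4 passed, and all 3 neutrophil proteases did. Of 7 proteases of lymphocytes and mast cells 2 passed, Mcpt8 at 6.38 and 3.75 TPM and Gzma at 2.96 and 4.94 TPM in replicates 1 and 2, and Gzmk had no count. Of 7 cell surface and hepatocyte serine proteases 6 passed, with Hgfac at 137 and 177 TPM, Hpn at 115 and 128 TPM and Habp2 at 63.6 and 68.4 TPM, and St14 lowest at 0.44 and 0.90 TPM. All 9 cofactors and clearance receptors passed, with Vtn, vitronectin, highest at 868 and 985 TPM, Sdc4 at 61.8 and 63.3 TPM, Proz after it and Thbd lowest at 1.35 and 1.5 TPM. Lrp1, which clears serpin complexes, had 27.85 and 31.49 TPM. Of 28 inhibitors of other families 22 passed, led by Ahsg at 4666 and 5477 TPM, Ambp at 1417 and 1515 TPM and Kng1 at 1142 and 1167 TPM. Mug1 and Mug2 had no count. Over all lists 71 of 91 genes passed, against 52.2% of protein-coding genes. Since the lists name known serpin partners and liver inhibitors, that difference describes the choice of genes and tests nothing.

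Among the 23 expressed serpins, 20 had several annotated transcripts. A leading transcript held at least 50% of the gene's TPM in 18 of them and at least 90% in 8, with a median of 84.2%. The exceptions were Serpinc1, the only gene whose leader differed between libraries, and Serpinf1. The leader of Serpind1, at 51.1%, has no model in M21. The leader of Serpinf1 held 40.2% ± 4.4, and a transcript annotated as a target of nonsense-mediated decay held 36.5% ± 0.9 (SD, n = 2). Serpina1e was divided between a transcript at 69.96% ± 0.09 and one at 30.04% ± 0.09, both with complete coding sequence. Serpina10 was led at 78.4% ± 0.5 by its shorter transcript of 1424 nt.

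Among serpins that averaged at least 100 counts, the libraries differed by less than 2-fold. Each ratio set replicate 2 over replicate 1 as log2(TPM + 1), after centring on genes that averaged at least 100 expected counts. Among 29 serpins that averaged at least 10 counts, none passed 2-fold with deposited intervals apart, against 0.436% of protein-coding genes. At so low a share, none among 29 shows nothing particular to serpins. Intervals were apart for 12 of the 29 (41.4%), against 22.7%, 11 of them members at 40 TPM or more, where intervals are narrow. The 23 serpins that averaged at least 100 counts had a median of 0.04, from -0.21 for Serpinb2 to 0.31 for Serpina3g, and 14 (60.9%) were higher in replicate 2. The 11493 other protein-coding genes had a median of 0.00, from -1.05 to 3.67, and 50.4% were higher in replicate 2. Serpini2, pancpin of the pancreas, was the other with intervals apart, at 0.14 and 0.55 TPM from 8 and 33 counts and a ratio of 0.42. It was the 1 member past 2-fold when the pseudocount was 0.1, with a ratio of 1.42, against 1.43% of protein-coding genes. Beside it, all 4 pancreas markers were higher in replicate 2, with Cpa1 at 1.82 and 9.10 TPM and Ins2 at 0.90 and 18.9 TPM. Their part in the Serpini2 values was not tested.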

How the data were processed

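Expected counts, TPM and FPKM per gene and transcript were deposited by the authors for each library, on mm10 with GENCODE M4 and from transcriptome alignments, per the text deposited beside the tables; aligner, counting program and versions: not given in the sources used here. As deposited, the expected counts are estimated counts that, per the file headers, need not be whole, as shared reads are divided among genes. TPM as deposited was the main measure; deposited FPKM entered 1 alternative. The deposited bounds around TPM have no level stated for them. The TPM lay above its own interval in 7 members and below it in 19 in each library. Intervals were therefore compared between libraries, and within a library by width only.

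Symbols, biotypes and coordinates came from GENCODE M21 by gene ID without version (42462 of 43346 Ensembl genes matched). Counts within 0.01 of a whole number were called whole. Clusters were members of a clade with gaps of at most 500 kb, and tandem sets the copies in them that share a number. Loop and body identity came from global alignments (Biopython 1.88, gap opening 10, extension 0.5) of translated GENCODE coding sequence, in place of the RefSeq proteins first planned, which were not used here; for the coding model, the most abundant complete transcript was taken, those of at least 300 residues first, and the longest where none reached 1 TPM. Windows were 100 bases, as effective length was length less 99, and were pooled over all M21 transcripts of a gene. M21 models differ from the M4 models that the counts used. Scaling alternatives used edgeR 4.0.16 and DESeq2 1.42.0 on counts rounded to whole numbers. Scripts were tested on simulated data. No source used here names molecular identifiers, so limits cover counting error only.

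Members, gene lists and alternatives were chosen with earlier results of these data known. Named genes were all members at 10 TPM or more, those with a value from 1 to 10 TPM, all copies of a tandem set with an expressed member, any past 2-fold between replicates, and the 3 highest and the lowest of each list with textbook partners. Members' counts and sums cover all 61 genes, but the values of 1 member are not reported here.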

Additional observations from a re-analysis of the deposited data

Results flagged for a closer look

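Several serpin-like rows outside the 61 protein-coding genes held more than the 3 counts that a count of 0 allows. Serpinb10, annotated as a polymorphic pseudogene, held 81.62 counts in replicate 1 and 80.56 in replicate 2, or 1.49 and 1.43 TPM. It overlaps Serpinb2 on the same strand, and 5.10% of its 100-base windows occur in members. Gm8893, an unprocessed pseudogene at chr12:103817856-103822243 inside the bounds of Serpina1b, held 746.17 counts in replicate 1 and 739.72 in replicate 2, or 15.5 and 14.2 TPM. Of its windows 24.0% occur in members, Serpina1a first. Serpina4-ps1 held 11 counts in replicate 2 and none in replicate 1, with no window shared with a member. Serpina3h held 5.3 counts in replicate 2 and none in replicate 1, and 3.60% of its windows occur in members, Serpina3g first. The part of divided reads in these counts was not tested.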

How the results depend on the processing

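No paired analysis was possible because the series has 1 group, so the replicate numbers pair nothing. The count of 23 expressed serpins was 23 with the posterior mean TPM, with FPKM, at 0.5 TPM, with at least 10 counts and in each library alone, 20 at 2 TPM and 18 at 5 TPM. The serpin share was 0.979% of expected counts and 1.31% of TPM without globin, spike-in and mitochondrial rows, and 0.743% to 0.799% in single libraries. By expected counts in place of TPM, clade A held 65.3%, B 0.898%, C 9.63%, D 4.19%, E 0.122%, F 16.9%, G 1.76%, H 1.19% and I 0.0168%, and Serpina1c 13.9% of its set. With the posterior mean, clade E held 0.0839% and clade I 0.0122%. With Serpinc1 at its coding length, chosen after seeing the data, clade A held 69.5%, B 0.743%, C 10.6%, D 2.95%, E 0.0828%, F 13.9%, G 1.51% and H 0.785%. With a pseudocount of 0.1, Serpini2 passed 2-fold (log2 ratio 1.42), 1 member against 1.43% of protein-coding genes. Scaling to ERCC spike-ins put the median log2 ratio of all genes at -0.35 and of serpins at -0.31. Levels moved by more than the SD in 14 of 16 members by coding length, in 6 of 16 by coding transcript length and in 4 of 23 with the posterior mean. By coding transcript length the ratios of Serpinc1 to F2 and of Serpina10 to Proz changed sides of 1. The counts of leading transcripts, listed genes and loop pairs stayed within 1.5 times in all alternatives run. Members under about 10 counts are limited by depth.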
